A study of Mus musculus with 6 samples.

Results

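Dietary iron crosses the gut wall through enterocytes, the absorptive cells of the small intestinal villus, and is recovered from old red cells by macrophages, the phagocytes of the tissue. Here 8 genes of iron absorption and storage were examined among the 32285 features of the count tables, each found by its symbol: Cybrd1, Slc11a2, Slc40a1, Heph, Tfrc, Fth1, Ftl1 and Hmox1. All 8 symbols were matched.

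The 6 libraries, 3 from IE-HuR-/- mice and 3 from control littermates, hold single cells of the small intestine captured in droplets, and RNA molecules were counted by their unique molecular identifiers (UMIs). According to the methods, mice of C57BL/6 background aged 6 to 8 wk carried HuR fl/fl alleles and the deletion was made by Cre under the villin promoter, which is active in the intestinal epithelium. Controls were HuR fl/fl-Cre- littermates that carry the same floxed alleles without Cre. The methods give a food deprivation of 24 h before experiments, whereas the labels give normal feeding, and iron in the diet or the blood is not given in the sources used here. The tissue is labelled as small intestinal epithelium, although the libraries also hold immune and red cells.

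Ferric iron is reduced at the brush border by CYBRD1, enters through the transporter SLC11A2, is either stored in the ferritin shell built of FTH1 and FTL1 chains or leaves the basal side through the exporter SLC40A1 (ferroportin), and is oxidised on the way out by HEPH. TFRC, the transferrin receptor, brings iron from the blood into dividing cells, and HMOX1 frees iron from haem. Iron regulatory proteins bind a short hairpin, the iron-responsive element, in the untranslated regions of several of these messages, where they limit translation from the 5′ side and protect the message on the 3′ side.

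The hairpins are shown because the members with a match to the pattern searched here did not all move the same way in enterocytes. Under the IE-HuR-/- label Ftl1 was higher, and Slc40a1, Fth1 and Tfrc were lower. Slc11a2, a member without a match, was lower too, so the directions do not divide by the match. A search of GENCODE vM21 transcripts on the mouse build GRCm38 for the loop CAGTGN on a stem of 5 paired bases (G with U allowed) with an unpaired C on its 5′ side, read on the strand of the transcript, gave a match in 4 of the 8 genes, and in 294 of 21877 protein-coding genes (1.34%). In these sequences, written 5′ to 3′ on the strand of the gene, capitals mark the loop.
Fth1, 5′ UTR, chr19:9982733-9982759, plus strand: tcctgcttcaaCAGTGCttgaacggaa
Ftl1, 5′ UTR, chr7:45459780-45459806, minus strand: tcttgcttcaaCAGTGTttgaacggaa
Slc40a1, 5′ UTR, chr1:45925466-45925492, minus strand: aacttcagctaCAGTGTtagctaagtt
Tfrc, 3′ UTR, chr16:32631220-32631246, plus strand: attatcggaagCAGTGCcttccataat
Tfrc, 3′ UTR, chr16:32631599-32631625, plus strand: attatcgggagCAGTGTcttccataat
Tfrc, 3′ UTR, chr16:32631664-32631690, plus strand: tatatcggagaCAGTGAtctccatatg
Tfrc, 3′ UTR, chr16:32631711-32631737, plus strand: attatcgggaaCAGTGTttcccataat
A match is a stretch of sequence and not a measured site. Each of the 7 matches lay within 1 exon. The other 4 genes, Cybrd1 (chr2:71117923-71142926), Slc11a2 (chr15:100387898-100425072), Heph (chrX:96455359-96574485) and Hmox1 (chr8:75093621-75100589), gave no match. The pattern allowed no bulge or mismatch within the stem of 5 bases, so a hairpin of another shape would be missed. Lack of a match therefore does not show that a gene is without the element.

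Cells were assigned to classes by fixed marker genes. Of 60706 barcodes, 60431 had at least 200 genes, and among these 14574 were gated as enterocytes, 307 as progenitors (dividing or stem cell markers beside epithelial markers), 347 as macrophages and 1258 as erythroid cells, with 5541 T or NK cells as a reference class. Cells passing several gates (1132) and cells passing none (35547, with a median of 1017 UMIs) were left out. Enterocyte markers took 8.54% to 9.16% of the UMIs of the enterocyte class and 0.221% to 1.57% of those of the other 4 classes, and 22 to 44 barcodes were shared by any pair of libraries, which held 59518012 to 91818560 UMIs each. The UMIs of each class were summed per library, and levels are given as UMIs scaled to 1e+06 UMIs of that class and library (CPM). Elavl1, which encodes HuR, had 28.1, 30.03 and 27.9 CPM in enterocytes of the control libraries and 28.9, 29.3 and 29.95 CPM in those labelled IE-HuR-/-, with a log2 fold change of 0.21 (SE 0.0520, adjusted p = 5.79e-04, edgeR). The CPM of the groups overlapped, so the value of 0.21 on scaled counts is not read as a rise. Elavl1 RNA thus gave no fall in enterocytes under the IE-HuR-/- label. In progenitors it had 65.0, 59.1 and 77.5 CPM in control libraries and 122, 101 and 79.6 CPM in the others (adjusted p = 0.673), and in macrophages 92.5, 89.8 and 74.1 CPM against 26.1, 39.3 and 46.5 CPM (-1.07, SE 0.41, adjusted p = 0.190), neither of which passed although the groups did not overlap. Each direction rests on the labels, and which exons the deletion removes is not given in the sources used here.

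In enterocytes, messages for the uptake, storage and export of iron were lower in the libraries labelled IE-HuR-/-, by 1.53-fold for Slc11a2, 1.67-fold for Fth1 and 3.05-fold for Slc40a1, whereas Ftl1, the light chain of the same ferritin shell as Fth1, was 1.27-fold higher. These folds are fitted on counts scaled between libraries, so they differ from ratios of the CPM given below. Of the 8 genes tested, 7 passed an adjusted p of 0.05, 5 lower and 2 higher, in a comparison where 60.6% of 12395 genes passed (32.2% lower and 28.4% higher), so that a call was common in this class. Without the scaling between libraries (TMM, which sets the bulk of genes to no change), the median of all genes moved from -0.03 to -0.21 on the log2 scale and 1903 genes were higher and 6247 lower, against 3525 and 3989 with it.

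**Figure D1:**
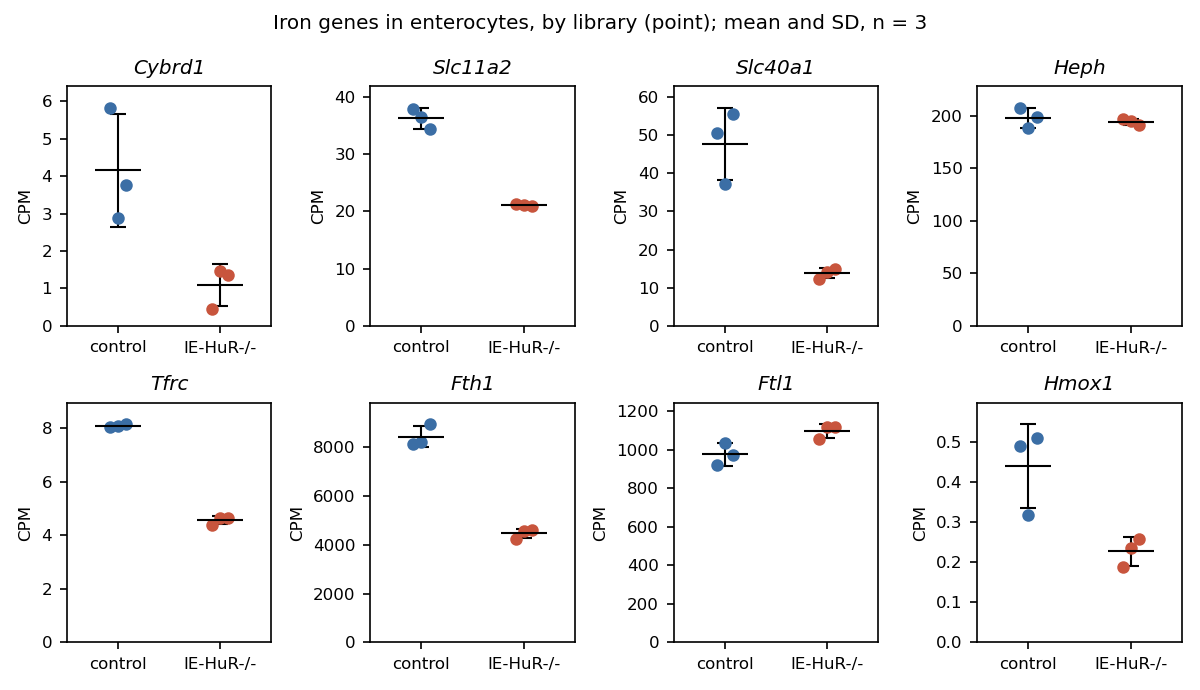
Levels of the 8 iron genes in enterocytes, in CPM on linear axes from 0, for the 3 control libraries (left in each panel) and the 3 libraries labelled IE-HuR-/- (right), 1 point per library with the mean and SD. Heph lay between 188 and 207 CPM in all 6 libraries and its groups overlapped, and the level of Hmox1 is read as background. A call was common in this class, with 60.6% of 12395 genes passing.

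At the brush border, Cybrd1, the duodenal ferric reductase, stood at 5.82, 2.88 and 3.77 CPM in the control libraries and 0.455, 1.46 and 1.36 CPM in those labelled IE-HuR-/-. It was lower in each of the latter, but the level was low in all 6. A UMI of Cybrd1 was found in 0.397% to 1.67% of enterocytes, where the median depth was 13741.5 UMIs, and in 0.0970% to 0.943% of T or NK cells, where it was 4769, so that the ranges overlapped. The log2 fold change was -1.72 (SE 0.51, adjusted p = 0.0436), and it did not pass in 10 of the 17 alternatives, among them those without control replicate 1 or 3 or any 1 of the libraries labelled IE-HuR-/- (-1.95 to -1.36 over the 6 libraries left out in turn). The next member in the path, the ferrous iron transporter Slc11a2, had 37.9, 36.5 and 34.3 CPM in control libraries and 21.2, 21.0 and 20.8 CPM in those labelled IE-HuR-/-. These groups were apart and nearly without spread in the second, and the fall of 0.61 on the log2 scale (SE 0.0534, adjusted p = 1.38e-13) passed in each of the 19 alternatives.

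For the exporter Slc40a1, enterocytes of the control libraries held 50.5, 37.2 and 55.4 CPM and those labelled IE-HuR-/- 12.4, 14.1 and 14.9 CPM. The lowest control library, at 37.2 CPM, lay above the highest of the others, at 14.9 CPM. The log2 fold change was -1.61 (SE 0.20, adjusted p = 0.00248), and it passed in 17 of 19 alternatives. This is a value of sums. A UMI of Slc40a1 was found in 13.9% to 15.9% of enterocytes in control libraries and 11.8% to 12.9% in the others. Heph, the ferroxidase that works beside it, had 207, 188 and 199 CPM against 196, 195 and 191 CPM, and the groups overlapped. Its fitted log2 fold change of 0.15 (SE 0.0440, adjusted p = 0.00381) came from the scaling, since without TMM it was -0.03 and not called, so no direction holds for Heph.

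Tfrc, the receptor for transferrin-bound iron, was low in enterocytes, at 8.04, 8.08 and 8.13 CPM in control libraries and 4.39, 4.64 and 4.66 CPM in those labelled IE-HuR-/-. Each group was tight and they were apart, with a log2 fold change of -0.65 (SE 0.0814, adjusted p = 3.08e-09). In the tercile of enterocytes richest in villus tip RNA the value was -0.19 and did not pass.

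The ferritin chains went in opposite directions in these cells. Fth1, the heavy chain with the ferroxidase centre, fell from 8159, 8228 and 8949 CPM to 4248, 4555 and 4619 CPM, a log2 fold change of -0.74 (SE 0.0537, adjusted p = 2.71e-16). Ftl1, the light chain that favours the mineral core, was found at 920.3, 1037 and 974 CPM in control libraries and at 1058, 1119 and 1117 CPM in those labelled IE-HuR-/-. The lowest of the latter was above the highest control library, though by little, and the log2 fold change was 0.34 (SE 0.0475, adjusted p = 3.03e-08). Both calls passed in all 19 alternatives, over which the log2 fold change of Fth1 lay between -0.92 and -0.54 and that of Ftl1 between 0.17 and 0.63. Reads of Ftl1 can be shared with the near-identical copy Ftl1-ps1, a separate row of the tables, so its level is less certain than that of Fth1.

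Hmox1, the inducible haem oxygenase, was at the edge of detection in enterocytes, at 0.488, 0.318 and 0.508 CPM against 0.187, 0.235 and 0.259 CPM. A UMI was found in 0.347% to 1.05% of enterocytes and in 0.660% to 1.67% of the shallower T or NK cells, so the level in enterocytes is read as background. The log2 fold change was -0.74 (SE 0.35, adjusted p = 0.0627), and it passed without control replicate 2 (-0.94, adjusted p = 0.0290).

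Genes that mark position along the small intestine differed between the same sums, and are given because iron uptake is a function of the proximal gut. S100g, a calcium-binding protein of the duodenum, had 201, 155 and 275 CPM in the control libraries and 4.81, 5.74 and 4.30 CPM in those labelled IE-HuR-/-, and of the 6 proximal genes 5 were lower and 1, Gata4, was not called. Pdx1, a duodenal transcription factor, had 9.53, 7.21 and 9.89 CPM against 3.00, 2.66 and 3.01 CPM. Of 5 distal genes 4 were higher and 1 lower, with the ileal bile acid binding protein Fabp6 at 661, 716 and 613 CPM against 2952, 3032 and 2819 CPM. The part of the segment taken in the enterocyte differences of the iron genes was not tested, and segment and label cannot be told apart in these libraries.

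**Figure D2:**
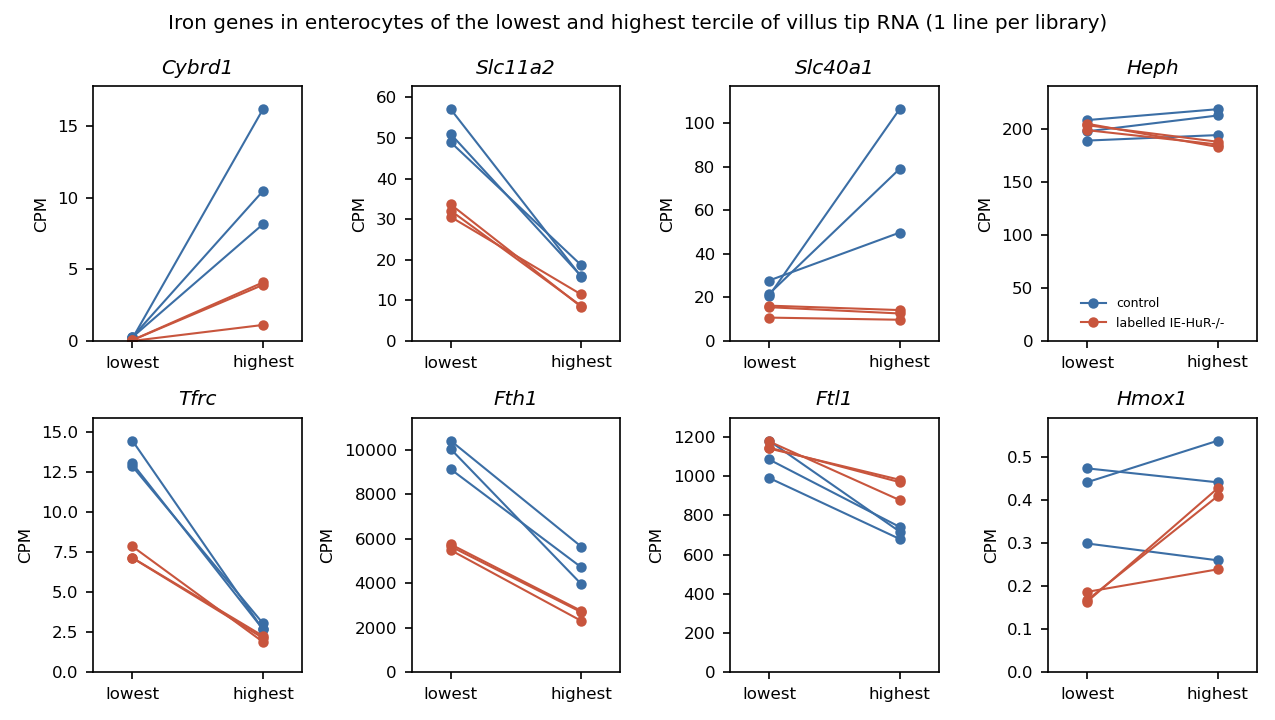
Levels of the 8 iron genes, in CPM on linear axes from 0, in the enterocytes of each library with the lowest and the highest tercile of villus tip RNA (Ada, Nt5e and Slc28a2), with 1 line per library, controls in blue and libraries labelled IE-HuR-/- in red. Slc40a1 reaches 49.7 to 106 CPM in the highest tercile of control libraries and 9.71 to 14.2 CPM in that of the others.

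Enterocytes mature as they move up the villus, and the members were followed along this axis by ranking the enterocytes of each library on their share of the villus tip genes Ada, Nt5e and Slc28a2, none of which is a member. This split was chosen after seeing the data. Genes of intestinal position differed between the terciles too. Proximal Trpv6 (log2 fold change 4.84), Onecut2 (1.42), Pdx1 (0.76) and Gata4 (0.56) were higher in the highest tercile, Lct (-0.71) lower and S100g not called. Distal Fabp6 (-2.39), Slc10a2 (-1.82), Slc51a (-1.27) and Slc51b (-0.72) were lower and Osr2 not called. The ranking thus does not separate villus position from segment, and the part of each in the tercile values was not tested. Of 7 members tested between the highest and lowest terciles, 6 were called, in a comparison where 77.2% of 11509 genes passed. Cybrd1 rose most, from 0.172, 0.261 and 0.275 CPM in the lowest to 16.2, 8.15 and 10.5 CPM in the highest tercile of control libraries. In the libraries labelled IE-HuR-/- it went from 0, 0.0559 and 0.0547 CPM to 1.11, 4.09 and 3.91 CPM. Cybrd1 RNA was thus concentrated in the tip-rich cells of both groups, with a log2 fold change over both of 6.01 (SE 0.22, adjusted p = 1.63e-09).

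The importer Slc11a2 had the opposite profile, with 57.1, 51.0 and 49.0 CPM in the lowest and 15.8, 15.9 and 18.7 CPM in the highest tercile of control libraries, and 32.1, 30.6 and 33.6 CPM against 8.60, 11.4 and 8.40 CPM in the others. It was lower in the tip-rich cells of all 6 libraries (log2 fold change -1.31, SE 0.0813, adjusted p = 9.65e-08). Tfrc (-1.68, SE 0.13, adjusted p = 4.43e-07) and Fth1 (-0.70, SE 0.0582, adjusted p = 1.08e-06) were likewise lower in the tip-rich cells of all 6 libraries. Ftl1 had a lower CPM in the highest tercile of each library as well, but on the scaled values its log2 fold change was -0.06 (adjusted p = 0.507). The median of all genes moved from -0.06 to -0.46 without TMM in this comparison, where 2537 genes were higher and 6739 lower instead of 4193 and 4695, and Heph went from 0.37 (SE 0.0381, adjusted p = 6.43e-06) to -0.03.

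In CPM, before scaling between sums, the tercile profiles of Slc40a1 and Heph ran in opposite directions under the labels. Both had a higher level in the tip-rich cells of each control library and a lower one in those of each of the others. On the scaled values Heph rose with tip RNA over both labels (0.37, SE 0.0381), and its label difference changed by only -0.13. No opposite direction is therefore read for Heph. None is read for Slc40a1 either, since its small fall with tip RNA under the IE-HuR-/- label is in CPM. Scaling moved the median of all genes upward in this comparison, and no scaled value of Slc40a1 within that label is given. For Heph the lowest and highest terciles had 208, 189 and 197 CPM and 218, 194 and 212 CPM in control libraries, and 205, 203 and 199 CPM and 183, 188 and 185 CPM in the others. In control libraries Slc40a1 rose from 21.5, 27.7 and 20.7 CPM in the lowest to 78.9, 49.7 and 106 CPM in the highest tercile. Libraries labelled IE-HuR-/- had 10.7, 15.5 and 16.2 CPM in the lowest and 9.71, 12.6 and 14.2 CPM in the highest tercile. The test of this difference for Slc40a1 gave a log2 value of -1.83 (SE 0.53, adjusted p = 0.0731), which did not pass, and without control replicate 2 it was -2.26 (adjusted p = 1.04e-15). Tested alone, the label difference was -2.44 in the highest tercile and passed, and -0.58 in the lowest, where it did not (adjusted p = 0.0546). Over both labels the rise of Slc40a1 with tip RNA was 1.25 (SE 0.44, adjusted p = 0.0387), a call lost without control replicate 1, 2 or 3 (0.91 to 1.27 for these 3).

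Of the 7 members, 2 had a label difference that itself changed between the terciles, where 29.6% of genes did (1360 higher and 2050 lower, and 985 and 2693 without TMM). For Ftl1 the rise in the libraries labelled IE-HuR-/- was larger in the highest tercile by 0.37 (SE 0.0624, adjusted p = 4.32e-04), with 679.7, 717 and 741 CPM in control libraries there and 877, 969 and 981 CPM in the others. In the lowest tercile the same gene had 990.3, 1179.8 and 1084 CPM against 1176, 1145 and 1140.0 CPM, and the groups overlapped. The value for Heph was -0.13 (SE 0.0470, adjusted p = 0.0293), was lost without any 1 library except control replicate 2, and turned to 0.02 without IE-HuR-/- replicate 1. The value for Fth1 was not called (SE 0.15, adjusted p = 0.994), beside control levels of 9137, 10044 and 10418 CPM in the lowest and 4727, 3973 and 5655 CPM in the highest tercile and levels under the other label of 5498, 5759 and 5663 CPM and 2317, 2768 and 2709.8 CPM. The tip genes used for the ranking were themselves higher under that label in the highest tercile, Ada at 10057 to 10852 CPM against 6945 to 7982 CPM, and the part of this in the values above was not tested.

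**Figure D3:**
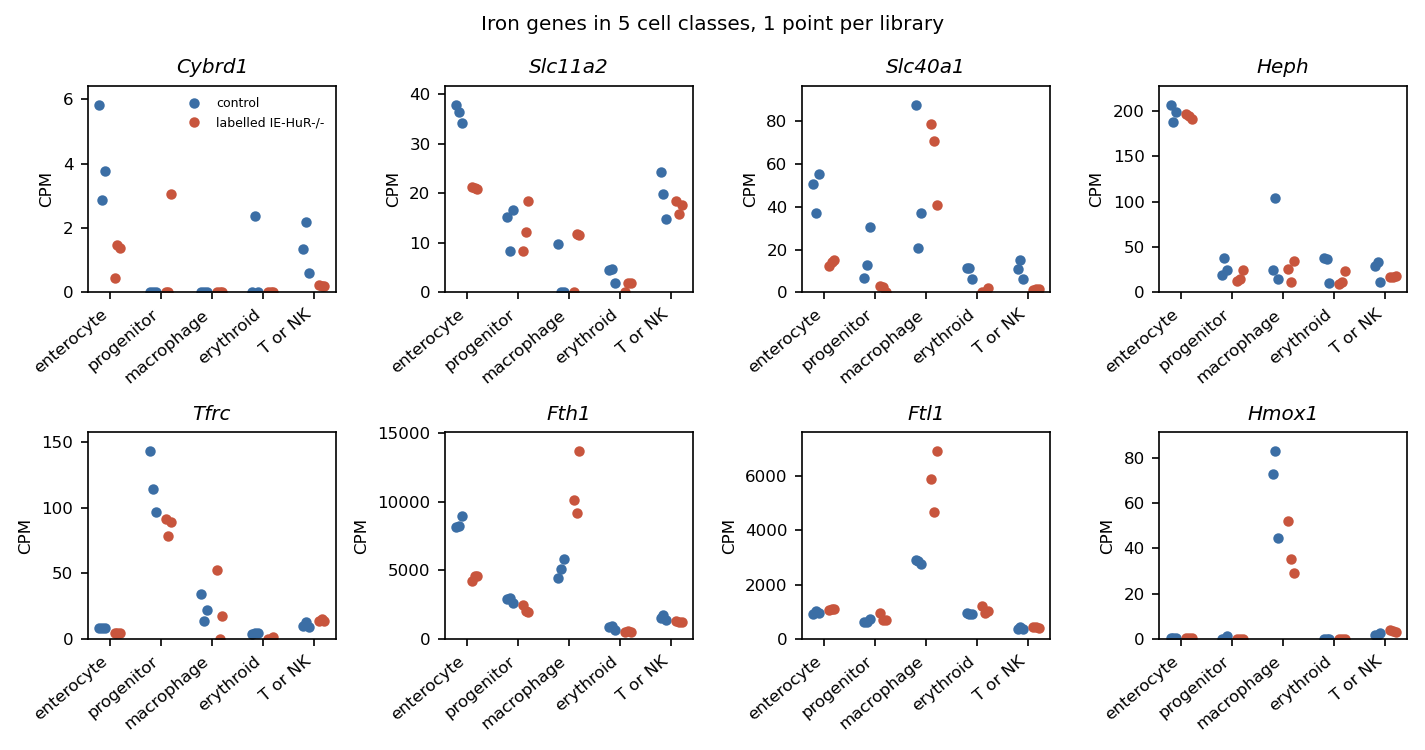
Levels of the 8 iron genes in enterocytes, progenitors, macrophages, erythroid cells and T or NK cells, in CPM on linear axes from 0, with 1 point per library, controls in blue and libraries labelled IE-HuR-/- in red. Tfrc is highest in progenitors at 78.5 to 143 CPM, Hmox1 in macrophages and Heph in enterocytes, and the low position of Ftl1 in erythroid cells is of totals that include haemoglobin UMIs.

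Across cell classes, Heph and Slc11a2 were highest in enterocytes, Tfrc in the dividing progenitors and Hmox1 in macrophages, also when haemoglobin UMIs were left out of the totals of erythroid cells. The place of Ftl1 depends on those UMIs. Per 1e+06 UMIs it was highest in macrophages, at 2779 to 6918 CPM, but without haemoglobin erythroid cells had 3550 to 5779 CPM, and the classes overlapped. Cybrd1 was left out of these fits by the filter on low counts, so 7 members were tested, with the library as a block. Between progenitors and enterocytes 6 of the 7 were called where 79.8% of 10595 genes were (4075 higher and 4385 lower, and 5953 and 2482 without TMM, which moved the median of all genes from -0.09 to 0.86). Tfrc was the member that rose in progenitors, to 143, 114 and 96.8 CPM in control libraries and 91.5, 78.5 and 88.8 CPM in those labelled IE-HuR-/-, 8.43-fold over enterocytes (log2 fold change 3.08, SE 0.19, adjusted p = 7.61e-18). Every progenitor sum was above every enterocyte sum. The lower members were Heph at 12.5 to 38.0 CPM (-4.15, SE 0.25, adjusted p = 2.01e-16), Slc40a1 (-2.50), Fth1 (-2.30), Slc11a2 (-2.07) and Ftl1 (-1.49). These 6 calls held in all 12 alternatives. Cybrd1 gave 1 UMI in all progenitors and Hmox1 gave 1.

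In macrophages, 5 of the 7 members differed from enterocytes where 66.9% of genes did (3294 higher and 3790 lower, and 4461 and 2427 without TMM, with the median moving from -0.13 to 0.51). Hmox1, which releases the iron of engulfed red cells, was found at 73.0, 82.9 and 44.5 CPM in control libraries and 52.3, 35.4 and 29.1 CPM in those labelled IE-HuR-/-, from 55 UMIs in all, and was called as higher than in enterocytes (adjusted p = 3.67e-18). No fold is given, since the enterocyte level is read as background. All 6 macrophage sums were above those of the other 4 classes. Ftl1 was 2.65-fold higher (1.41, SE 0.17, adjusted p = 1.20e-09), Heph 9.59-fold lower (-3.26) and Slc11a2 6.67-fold lower (-2.74, from 7 UMIs in macrophages). Tfrc, from 23 UMIs, was 2.26-fold higher (1.17, SE 0.45, adjusted p = 0.0203), a call that was lost when either library numbered replicate 1, or the replicate 3 labelled IE-HuR-/-, was left out (0.66 to 1.43 over the libraries left out). Slc40a1 spread from 20.7 to 87.6 CPM in macrophages and 12.4 to 55.4 CPM in enterocytes, which overlap, and it was not called. Fth1 was not called either (-0.21), but this fit pools both labels. The CPM of Fth1 was lower in macrophages than in enterocytes in each control library, and higher in each of the others. Cybrd1 had no UMI in macrophages, which allows a level of up to 2.82 CPM from 3 counts, for counting error only.

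In erythroid cells the globin messages took 74.4% to 83.9% of the UMIs, so the CPM of every other gene is small and a comparison depends on the scaling. Fth1 had 840.2, 953 and 642 CPM in control libraries and 530.4, 606 and 528 CPM in those labelled IE-HuR-/-. Ftl1 had 939.6, 907 and 931 CPM against 1222, 943 and 1013 CPM. Tfrc had 0 to 4.73 CPM from 19 UMIs. With TMM, 2 of 7 members were called against enterocytes, Ftl1 (log2 fold change 2.73) and Tfrc (1.69), where 15.7% of genes were (717 higher and 950 lower). Without TMM the median of all genes went from -0.18 to -2.84 with 153 higher and 8535 lower, Ftl1 to -0.07 and Tfrc to -1.01. With haemoglobin UMIs taken out, where 590 genes were higher and 3075 lower and the median was -0.61, Ftl1 (2.20, adjusted p = 4.14e-15) and Tfrc (1.29, adjusted p = 0.0356) were higher, and Heph (-0.92), Fth1 (-0.94) and Slc11a2 (-0.998) were lower. Ftl1 was called in 11 of 12 alternatives and Tfrc in 7, and both turned direction in the 1 without TMM. Hmox1 had no UMI in this class, which allows up to 0.532 CPM.

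Progenitors of the libraries labelled IE-HuR-/- gave no called member. Of 4 tested 0 passed edgeR's adjusted p (DESeq2 also called 0), and 1 had an unadjusted p under 0.05, Fth1, where 0.184% of 5977 genes passed and 423 had an unadjusted p under 0.05. Tfrc had a log2 fold change of -0.48 (SE 0.24, adjusted p = 0.724), with 96.8 CPM as the lowest control library and 91.5 CPM as the highest of the others. Fth1 went from 2875, 2969 and 2601 CPM to 2493, 2016 and 1957 CPM, without overlap, with a value of -0.43 (SE 0.19, adjusted p = 0.650). Slc40a1 was too low for the test, at 6.50, 12.7 and 30.4 CPM against 2.77, 2.45 and 0 CPM, from 34 UMIs. Of these UMIs 22 came from control replicate 3, which held 19 progenitors with a median of 10657 UMIs. The other libraries held 36 to 67 progenitors each, with medians of 2934.5 to 4620 UMIs. No member's label difference in progenitors was shown to differ from that in enterocytes (0 of 7 called by edgeR, where 1.71% of 10595 genes were, 76 higher and 105 lower, or 224 and 63 without TMM, and 1442 had an unadjusted p under 0.05).

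**Figure D4:**
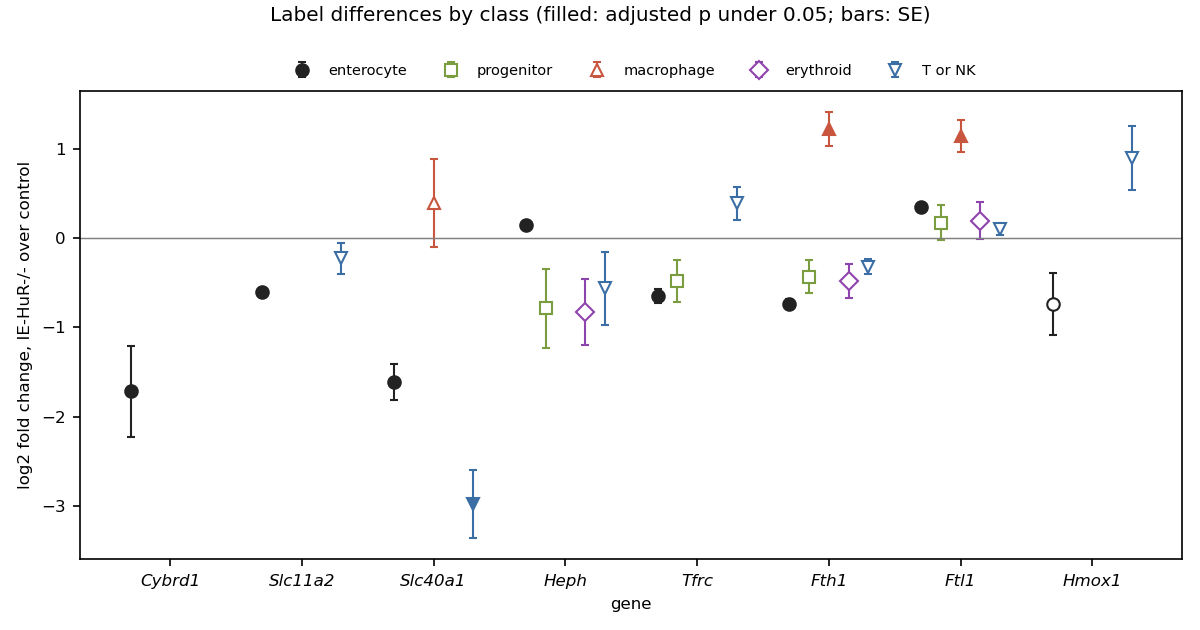
Log2 fold changes of the libraries labelled IE-HuR-/- over controls (y axis) for each iron gene (x axis) in the 5 classes, with bars of 1 SE and filled symbols where the adjusted p was under 0.05. Fth1 is at -0.74 in enterocytes and 1.22 in macrophages, and Slc40a1 is at -1.61 in enterocytes and -2.98 in T or NK cells.

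In macrophages, both ferritin chains stood higher under the IE-HuR-/- label. Fth1 had 4453, 5097 and 5796 CPM in control libraries and 10144, 9153 and 13674 CPM in the others. Ftl1 had 2905, 2887 and 2779 CPM against 5896, 4679 and 6918 CPM. For both genes the groups did not overlap, with log2 fold changes of 1.22 (SE 0.19, adjusted p = 0.00425) for Fth1 and 1.14 (SE 0.18, adjusted p = 0.00425) for Ftl1. Of 3 members tested 2 were called, where 2.42% of 2359 genes were (29 higher and 28 lower, and 27 and 47 without TMM, which moved the median of all genes from 0.01 to -0.14). Slc40a1, through which macrophages return iron to the blood, had 87.6, 20.7 and 37.1 CPM against 78.4, 70.7 and 40.7 CPM, which overlap, and a value of 0.40 (SE 0.49, adjusted p = 0.742). Hmox1 was too low for the test, and the highest of the libraries labelled IE-HuR-/-, at 52.3 CPM, was above the lowest control library, at 44.5 CPM.

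These macrophage values rest on 26 to 46 cells per control library and 71 to 92 per library labelled IE-HuR-/-, with medians of 1572 to 2211.5 and 1240 to 1264 UMIs per cell. With a stricter marker gate, neither chain passed (Fth1 1.74, Ftl1 1.39, adjusted p = 0.058 for both), and neither did with cells of several gates kept (Fth1 0.68, adjusted p = 0.729, and Ftl1 1.33, adjusted p = 0.146). With at least 500 genes per cell Ftl1 did not pass (1.12, adjusted p = 0.0583). Leaving out any 1 library kept both calls, with 1.02 to 1.40 for Fth1 and 0.99 to 1.34 for Ftl1. The summed macrophage markers were at 1.45% to 1.86% of UMIs in control libraries and 1.34% to 1.76% in the others, and enterocyte markers were at 0.597% to 1.57% and 0.961% to 1.23%. Other genes moved in the same sums. Fabp6, of the ileal epithelium, had 34.1, 34.5 and 22.2 CPM in control libraries and 484, 676 and 692 CPM in the others (4.41, adjusted p = 3.31e-06). The haemoglobin scavenger receptor Cd163 had 273, 6.91 and 400.2 CPM against 85.0, 0 and 0 CPM (adjusted p = 0.447), and the endocytic receptor Lrp1 394, 269 and 208 CPM against 170, 196 and 93.1 CPM (-0.82, adjusted p = 0.210). Cd163 and Lrp1 were chosen after their values were seen. The part of these markers and genes in the ferritin values was not tested.

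The label difference of Fth1 in macrophages exceeded that in enterocytes by 2.08 on the log2 scale (SE 0.24, adjusted p = 1.33e-08), and that of Ftl1 did by 0.89 (SE 0.25, adjusted p = 0.0496). These were 2 of 7 members, where 1.41% of genes were called. For Fth1 the difference passed in 10 of 11 alternatives and failed with cells of several gates kept (1.50, adjusted p = 0.258). For Ftl1 it passed in 3 of the 11, and was lost without each library in turn except control replicate 2 (0.71 to 1.07). The value for Slc40a1 was 2.11 (SE 0.60, adjusted p = 0.0858). It did not pass, and did so without control replicate 1 (2.90, adjusted p = 0.0236), control replicate 2 (1.87, adjusted p = 0.0133) or control replicate 3 (1.78, adjusted p = 0.0181), and with no filter on low counts (2.02, adjusted p = 7.99e-04).

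Erythroid cells had 0 of 3 members called between the labels by edgeR, where 6.69% of 1524 genes were. DESeq2 called 0 as well, and 2 members, Heph and Fth1, had an unadjusted p under 0.05. The values were -0.83 for Heph (SE 0.37, adjusted p = 0.232), -0.48 for Fth1 (SE 0.19, adjusted p = 0.145) and 0.19 for Ftl1 (SE 0.21, adjusted p = 0.729). No member's label difference was called as different from that in enterocytes, where 0.0189% of genes were and 459 had an unadjusted p under 0.05. Without control replicate 3, Heph (-0.998, adjusted p = 0.0325) and Ftl1 (0.48, adjusted p = 0.0465) passed. The erythroid sum of that library had 0.506% enterocyte markers and the highest share of haemoglobin, 83.9%. Its marker share is of totals that include haemoglobin UMIs, so it does not show less enterocyte RNA there than in the other libraries. The part of enterocyte RNA in these values was not tested.

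T or NK cells served as a reference class with no known part in iron absorption. Against enterocytes 6 of the 7 members differed in them, where 86.7% of genes did (4581 higher and 4605 lower, and 6318 and 3021 without TMM), with Hmox1 higher and Heph (-4.18), Slc40a1 (-3.25), Fth1 (-3.04), Ftl1 (-2.21) and Slc11a2 (-1.47) lower. Slc40a1 had 11.2, 14.9 and 6.19 CPM in their control libraries and 0.933, 1.48 and 1.68 CPM in those labelled IE-HuR-/-, and it was the 1 member called of 7 (log2 fold change -2.98, SE 0.38, adjusted p = 2.94e-04), where 4.07% of 11084 genes were. The test of the difference from the enterocyte value gave -1.40 (SE 0.497, adjusted p = 0.0649), which did not pass, and passed in 4 of 11 alternatives, among them those without control replicate 1 (-1.44, adjusted p = 0.0485) or 3 (-1.77, adjusted p = 1.45e-04). Enterocyte marker RNA was at 0.478% to 1.06% of the UMIs of these cells, and S100g, of the proximal list, fell there too, from 26.5, 28.3 and 15.9 CPM to 0.466, 0.556 and 0.373 CPM. The part of enterocyte RNA in the level of Slc40a1 in these cells was not tested. Fth1 was at 1405 to 1747 CPM and 1239.9 to 1305 CPM (-0.32, adjusted p = 0.0923), and Ftl1 at 375 to 424 CPM and 413 to 443 CPM (0.10, adjusted p = 0.515). Without control replicate 3, Fth1 (-0.41, adjusted p = 2.02e-05) and Heph (-0.88, adjusted p = 3.76e-05) passed as well. Tfrc had 9.81, 13.2 and 9.13 CPM against 14.0, 15.4 and 13.6 CPM, a value of 0.39 (SE 0.18, adjusted p = 0.298), and this exceeded the difference in enterocytes by 1.05 (SE 0.23, adjusted p = 0.00105), the 1 member of 7 called where 12.4% of genes were (864 higher and 448 lower, and 1497 and 197 without TMM).

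Genes of iron handling outside the 8 were counted in enterocytes from fixed lists, against the 60.6% of all genes called there. Together the lists gave 38 of 60 genes tested (63.3%), a share close to that of all genes. Among 15 genes of iron sensing and regulation 5 were higher and 6 lower, with a median log2 fold change of 0.01 beside -0.03 for all genes. Egln3, an oxygen sensor of the hypoxia pathway, was at 42.8 CPM in control libraries and 67.3 CPM in the others on average (log2 fold change 0.83), Hif1a, a hypoxia-inducible factor, had a value of 0.66, and Ncoa4, the receptor that takes ferritin to the lysosome, one of -0.49. The iron regulatory protein Ireb2 fell from 119, 108 and 114 CPM to 83.6, 82.6 and 80.8 CPM (-0.29, adjusted p = 3.86e-07). Aco1, the other such protein, was not called on scaled values (0.06, adjusted p = 0.212). In CPM it was lower too, at 131, 130 and 132 CPM in control libraries against 120, 118 and 125 CPM in the others. Ireb2 and Aco1 are given beside the hairpins their proteins bind and were chosen after their values were seen.

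Of 20 other iron transport and binding genes 8 were tested, 1 higher and 2 lower (median -0.11): the phagosomal transporter Slc11a1 (1.01), and the mitochondrial iron importers Slc25a28 (-0.15) and Slc25a37 (-0.12). Slc11a1 was near the floor, at 0.268 to 0.615 CPM from 113 UMIs, a level that overlaps that of Hmox1, which is read as background. In macrophages it had 29.1 to 87.6 CPM, and the part of RNA from other cells in its enterocyte value was not tested. Haem uptake, export and breakdown had 9 of 12 genes tested and all 9 called, 3 higher and 6 lower (median -0.13), with Flvcr2 (1.34) and the exporter Abcg2 (0.84) among the higher and the endosomal haem transporter Slc48a1 (-0.72) among the lower. Slc48a1 was near the floor as well, at 0.376 to 0.937 CPM from 190 UMIs. Haem synthesis had 1 of 9 genes higher and 6 lower (median -0.30). Its largest falls were Uros (-0.84) and Cpox (-0.76), and Alad (0.38) was the higher one. Iron-sulphur cluster assembly had 2 of 19 higher and 6 lower (median -0.07), with Fdxr (-0.48), Fdx2 (0.47) and Fdx1 (-0.40) the most changed.

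In the other classes the 5 lists gave 0 of 42 genes tested in progenitors and 0 of 14 in macrophages by edgeR's adjusted p, beside 0.184% and 2.42% of all genes, and 2 and 1 had an unadjusted p under 0.05. Erythroid cells gave 3 of 22 (13.6%, beside 6.69% of all genes), Ncoa4 (0.70) and Slc25a37 (0.71) higher and the haem and folate transporter Slc46a1 (-1.92) lower, the last at 33.6, 43.8 and 18.3 CPM against 4.48, 3.80 and 14.7 CPM. In enterocytes Slc46a1 had 226, 219 and 236 CPM in control libraries and 131, 135 and 129 CPM in the others (-0.61). Enterocyte markers took 0.506% to 0.972% of the UMIs of erythroid sums, in totals that include haemoglobin. The part of enterocyte RNA in these erythroid values was not tested. T or NK cells gave 4 of 56 (7.14%, beside 4.07%), all lower, namely Aco1 (-0.52), Ncoa4 (-0.45), Tmprss6 (-1.02) and Trf (-0.46). Of the genes of intestinal position, erythroid cells gave Lct (-1.56) and Onecut2 (-1.51) lower and Fabp6 (2.05) and Slc10a2 (1.29) higher, macrophages gave Fabp6 higher, T or NK cells gave S100g lower and progenitors gave none by edgeR.

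Over the 30 sums of 5 classes and 6 libraries, the genes with the most similar log2 profile were listed for each member among 9901 genes, as a description, since sums of a library share their depth. For Heph these were Enpep (Pearson r 0.964), Ces2e (0.961) and Rnf128 (0.951). For Tfrc they were Rcc1 (0.938), Tmem97 (0.930) and E2f5 (0.904), and for Hmox1 Il10ra (0.973), Tlr7 (0.973) and Axl (0.972). Fth1 was most like Lamp1 (0.944), Plbd1 (0.932) and Ctsz (0.920), and Ftl1 most like its copy Ftl1-ps1 (0.916), Pla2g2d (0.899) and Cxcl9 (0.893). Slc40a1 was most like Cxcl16 (0.857), Ccl24 (0.847) and Cyp27a1 (0.836), and Slc11a2 most like 2010315B03Rik (0.932), Naa80 (0.925) and Vps13d (0.917). Cybrd1 was under the mean of 5 CPM that this listing required.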

How the data were processed

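For each library the authors deposited UMI counts (gene by barcode, raw). The file headers name Cell Ranger 6.1.2 and the labels the mm10 build and a 5′ kit, whereas the methods name an earlier version, a human reference and a 3′ kit. Counts were used as deposited in Python 3.11.15 and R 4.3.3. Barcodes with at least 200 genes were kept. A cell entered a class when it held a minimum of different markers and of marker UMIs: 8 markers and 3% for enterocytes, which also needed 3000 UMIs because barcodes under 2000 UMIs carried 4.75% enterocyte marker RNA on average, 3 and 0.1% for progenitors with at least 3 epithelial markers, 3 and 0.2% for macrophages, 2 and 20% for erythroid cells, and 4 and 1% for T or NK cells. These floors were set on all cells pooled, without regard to the label. No doublet caller was used, and cells of several gates, or of goblet, Paneth, enteroendocrine, tuft, B or plasma, fibroblast or dendritic gates, were left out. The members, the lists (iron sensing and regulation, other iron transport and binding, haem uptake, export and breakdown, haem synthesis, iron-sulphur cluster assembly, proximal and distal genes) and the tests were chosen with earlier results of these data known.

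Sums per library and class were compared between labels with edgeR 4.0.16 (TMM, robust quasi-likelihood F test, genes kept by filterByExpr at a count of 10 and a total of 15), with Benjamini-Hochberg adjusted p over all genes tested and a threshold of 0.05. Classes were compared with the library as a block, and label differences between classes with an interaction term. The 6 libraries, 1 per animal, were the replicates, and all adjusted p values are two-sided edgeR values unless DESeq2 1.42.0, an alternative, is named. Alternatives were no TMM, no filter on low counts, cells of 500 or more genes with no more than 25% mitochondrial UMIs, a stricter gate, cells of several gates kept, thinned counts, a replicate block, enterocytes with or without a villus tip UMI, haemoglobin UMIs taken out and 1 library left out. An enterocyte gate without a UMI floor and the tercile comparisons were added after the data had been seen. On simulated counts with 200 genes changed by 2 on the log2 scale (smaller changes were not simulated) the test recovered 200 of 200 in enterocyte, 195 of 197 in progenitor and 190 of 193 in macrophage sums, with 7, 13 and 6 false calls. The same spread was simulated for all genes of a class, so recovery of smaller or more variable changes is not shown. Replicate numbers did not pair the libraries (correlations of -0.22 to 0.03).

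Named genes were the 8 members, Elavl1, up to 3 called genes of the largest change per list and class, the region genes and the 3 most similar genes per member. Hairpins were searched in GENCODE vM21. Limits from a count of 0 are 3 counts and cover counting error only. Symbols Ahsp, Trgc1 and Trgc2 of the marker lists matched no row.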

Additional observations from a re-analysis of the deposited data

Results flagged for a closer look

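The label effect of 2 of 7 members differed between macrophages and enterocytes, where that of 1.41% of all genes did. Between T or NK cells and enterocytes that of 1 of 7 differed, where 12.4% of all genes did. Between villus terciles that of 2 of 7 differed, where 29.6% did. For the T or NK cells and for the terciles the share of all genes was close to that of the members. The rise of Fth1 in macrophages against its fall in enterocytes gave a difference of 2.08 on the log2 scale (SE 0.24, adjusted p = 1.33e-08, edgeR). The macrophage value of Ftl1 exceeded that in enterocytes by 0.89 (SE 0.25, adjusted p = 0.0496). For Tfrc the value in T or NK cells, itself not called (0.39, adjusted p = 0.298), exceeded that in enterocytes by 1.05 (SE 0.23, adjusted p = 0.00105). Within enterocytes, the label effect was larger in the tercile richest in villus tip RNA by 0.37 for Ftl1 (SE 0.0624, adjusted p = 4.32e-04) and differed by -0.13 for Heph (SE 0.0470, adjusted p = 0.0293).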

How the results depend on the processing

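Of 382 label differences of members within classes under an alternative, 347 kept their direction and side of the threshold. The number of members called in enterocytes was 7, and was 3 without a villus tip UMI, 4 in the highest tercile of tip RNA and 6 to 8 with 1 library left out. It went from 0 to 1 in progenitors with no filter on low counts, and in macrophages from 2 to 1 with at least 500 genes and to 0 with a stricter gate or cells of several gates kept. Erythroid cells went from 0 to 1 with no filter and 0 to 2 with 1 library left out, and T or NK cells from 1 to 2 without TMM, 3 with no filter and 1 to 3 with 1 library left out. Against enterocytes, erythroid cells had 2 members called, 5 without TMM, with no filter or with haemoglobin UMIs taken out, 1 with cells of several gates kept and 1 to 4 with 1 library left out. For the label difference compared with enterocytes, macrophages went from 2 to 1 without TMM or with at least 500 genes, 0 with cells of several gates kept and 1 to 3 with 1 library left out, and T or NK cells from 1 to 3 without TMM, 2 with no filter or a stricter gate and 1 to 3 with 1 library left out. Between terciles it went from 2 to 1 with no filter and 1 to 4 with 1 library left out. The count of all genes called moved over the alternatives too, and is not matched here to each setting. Few enterocytes lacked a villus tip UMI, since 86.5% to 94.2% per library held it. T or NK cells held it in 89.6% to 92.1%, so holding it does not tell RNA of the cell from free RNA. The member counts are therefore not read as changes of the iron genes, and the cause of their changes was not tested.

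Directions turned for Heph in enterocytes without TMM (-0.029) and without a villus tip UMI (-0.0064), for Heph between terciles without TMM (-0.027) and in its label difference there with 1 library left out (-0.15 to 0.019), for Ftl1 in progenitors with 1 library left out (-0.028 to 0.27) and with cells of several gates kept (-0.018), for Slc40a1 in macrophages with cells of several gates kept (-1.28), for Ftl1 in erythroid cells with at least 500 genes (-0.46), and for Tfrc (-1.01) and Ftl1 (-0.075) between erythroid cells and enterocytes without TMM. Slc40a1 in enterocytes did not pass without a villus tip UMI (-0.74) or in the lowest tercile (-0.58).

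With the replicate number as a block, 6 members were called in enterocytes (Cybrd1 was lost, -1.68, adjusted p = 0.189), 0 in progenitors, 2 in macrophages, 0 in erythroid cells and 1 in T or NK cells, and it took the count of genes called from 57 to 27 in macrophages and from 451 to 277 in T or NK cells. The numbers are shared by name only, and 2 of 30 sums correlated best with their own number.

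Over the alternatives the count of all genes called lay between 1375 and 8150 in enterocytes (7514), 7 and 96 in progenitors (11), 3 and 162 in macrophages (57), 2 and 161 in erythroid cells (102) and 141 and 1197 in T or NK cells (451). Against enterocytes it lay between 1187 and 8688 in erythroid cells (1667), and the compared label differences lay between 54 and 324 in progenitors (181), 50 and 190 in macrophages (149), 0 and 39 in erythroid cells (2) and 682 and 2133 in T or NK cells (1312). Low totals limit macrophages (134930 to 254568 UMIs per library), so that Cybrd1, Slc11a2, Heph, Tfrc and Hmox1 could not be tested there.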

Other observations

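To compare the share of cells with a UMI at 1 depth, each cell was thinned to 1000 UMIs and shallower cells were left out, which removed 0 of 8405 enterocytes in control libraries and 0 of 6169 in those labelled IE-HuR-/-, and 6 of 2542 and 17 of 2999 T or NK cells. The ferroportin gene Slc40a1 then had a UMI in 2.60% ± 0.209 (SD, n = 3) of enterocytes in control libraries and 1.298% ± 0.207 (SD, n = 3) in the others, from 14.9% and 12.3% before thinning. In T or NK cells the thinned shares were 1.00% ± 0.329 (SD, n = 3) and 0.131% ± 0.151 (SD, n = 3), from 4.78% and 0.661%. Fth1 had a UMI in 89.2% and 84.1% of thinned enterocytes, from 99.9% and 99.6%, and T or NK cells held a UMI of it in 98.99% and 97.6% before thinning, so the share does not tell RNA of the cell from free RNA. Ftl1 stood at 53.7% and 55.9% after thinning, from 95.8% and 95.6%. These shares are means over the libraries of each label and were not tested.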
